A study of Mus musculus with 8 samples.

Results

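Interferon regulatory factors (IRFs) are the transcription factors examined here, taken as the 8 genes Irf1, Irf2, Irf3, Irf4, Irf5, Irf7, Irf8 and Irf9 by matching their symbols in the gene tables, out of 16786 genes with a value in 7 or more libraries. All 8 were among the 12412 genes that passed the filter on low counts and were tested. The study asked how loss of collectin-11 (CL-11, encoded by Colec11), a soluble pattern recognition lectin, alters tumor-associated macrophages (TAMs). It carried out RNA-Seq on CD45+F4/80+ cells sorted from subcutaneous B16 melanomas, which arise from a C57BL/6 mouse melanoma line, at day 14. TAM-WT denotes the cells of 4 C57BL/6 wild-type hosts and TAM-KO the cells of 4 Colec11-/- hosts. The male mice were 8 to 10 weeks old, the controls were littermates, and the knockout had been backcrossed for at least 10 generations. The deletion was present in every cell of the host and not in macrophages alone. The B16 cells were a line from ATCC. The paper took very low Colec11 mRNA in CD45-negative tumor cells of knockout hosts to imply slight CL-11 production by the melanoma cells. The number of mice given for these measurements matches the number of libraries, although the labels do not name the animal behind each one.

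IRFs share a DNA-binding domain that recognizes GAAA-type repeats in interferon-stimulated response elements (ISREs), and they differ in how they are switched on. Some lie inactive until a sensor of nucleic acids triggers their phosphorylation, some are themselves made in response to interferon, and some are set by cell lineage. In macrophages they are known for the first wave of type I interferon, the interferon-stimulated program, antigen presentation, and the balance between inflammatory and alternative activation.

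The genotype could not be checked from its own transcript, since Colec11 had 0 to 4 counts per library and was not tested. Depth was even, with 16225362 to 17280267 reads assigned to genes in the 7 libraries with a full table. The table of TAM-KO replicate 1 lacked a usable value for 4214 genes, among them Irf1, Irf2, Irf4, Irf8 and Irf9, so these 5 genes were tested on the other 7 libraries. The authors' table of differential expression lists a TAM-KO replicate 1 value for Irf1 and Irf4. These 2 values are given here but were kept out of the test, because that table holds genes the authors selected as differing. Macrophage markers were abundant, with Adgre1 (F4/80 itself) at 182 to 239 FPKM and C1qa at 1613 to 2161 FPKM (read fragments scaled by gene length and by mapped depth). Cd68 stood at 1825 to 2312 FPKM in TAM-WT and lower, at 1337 to 1859 FPKM, in TAM-KO replicates 2 to 4, the ranges overlapping. Melanoma transcripts were also abundant, the 7 marker genes summing to 1958 to 4382 FPKM in TAM-WT and 3817 to 5057 FPKM in TAM-KO.

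The upstream sequences of 4 members are shown because they hold the motifs through which interferon signals are known to reach this family, or belong to the member with the largest difference. They are the 250 bases before the first transcribed base of the RefSeq entry on GRCm38.p6, the build the submitters' processing notes name. Capitals mark the gamma-activated sequence (GAS, TTCNNNGAA), an element known from interferon gamma signaling, and the ISRE core (GAAANNGAA). Both were searched on either strand in windows running from 250 bases before to 50 bases after the start.
Irf1, chr11:53769764-53770013, plus strand: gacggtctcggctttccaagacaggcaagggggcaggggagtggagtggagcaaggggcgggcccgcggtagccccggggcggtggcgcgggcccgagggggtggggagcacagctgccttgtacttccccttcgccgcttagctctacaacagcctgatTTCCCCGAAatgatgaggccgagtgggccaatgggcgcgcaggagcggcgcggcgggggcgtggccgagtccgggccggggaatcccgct
Irf2, chr8:46739495-46739744, plus strand: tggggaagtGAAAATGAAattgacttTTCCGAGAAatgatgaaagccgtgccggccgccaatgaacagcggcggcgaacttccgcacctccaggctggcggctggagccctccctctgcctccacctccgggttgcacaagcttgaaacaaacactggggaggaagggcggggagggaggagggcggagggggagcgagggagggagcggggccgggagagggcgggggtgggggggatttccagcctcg
Irf8, chr8:120736108-120736357, plus strand: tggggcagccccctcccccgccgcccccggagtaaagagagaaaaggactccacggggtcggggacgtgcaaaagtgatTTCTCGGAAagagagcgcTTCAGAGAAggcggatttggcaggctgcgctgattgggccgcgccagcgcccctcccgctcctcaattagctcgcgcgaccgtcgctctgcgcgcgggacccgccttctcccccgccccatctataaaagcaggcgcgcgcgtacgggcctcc
Irf7, chr7:141266425-141266674, minus strand: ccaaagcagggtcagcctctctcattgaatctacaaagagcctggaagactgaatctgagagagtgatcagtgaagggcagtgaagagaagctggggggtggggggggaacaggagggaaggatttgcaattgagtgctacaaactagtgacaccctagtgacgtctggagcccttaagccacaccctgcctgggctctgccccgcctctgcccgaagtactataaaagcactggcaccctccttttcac

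RefSeq had 11 promoter entries for the 8 genes. The Irf1 window shown above held a GAS, TTCCCCGAA, beginning 90 bases before the start. The Irf2 window held the ISRE core GAAAATGAA 241 bases and the GAS TTCCGAGAA 224 bases before the start, with no base in common. The Irf8 window shown above held 2 GAS motifs, TTCTCGGAA and TTCAGAGAA, at positions −171 and −153 counted from the start. The other RefSeq entry of Irf1 and that of Irf8 held neither motif. Neither motif was found in the windows of Irf3, Irf4, Irf5, Irf7 or Irf9, which says only that these letters are not there. Of the 11 entries, 3 held a GAS and 1 an ISRE core. A GAS was present in 8.3% and an ISRE core in 8.56% of all 32851 promoter windows.

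Irf1 rose in TAM-KO, Irf7 was higher by the larger factor but just missed the threshold, and the remaining 6 members did not pass. By edgeR's quasi-likelihood test with Benjamini-Hochberg adjustment over all genes, 1 of the 8 members was called at an adjusted p of at most 0.05, against 9.81% of all genes tested in either direction and 4.58% called higher. Of the 8 members, 7 had log2 fold changes (TAM-KO over TAM-WT) above 0, beside 6244 of 12412 for all genes, and the members' median was 0.17 beside 0.0016 for all genes. Since the cells are a bulk sample, a change in the number of cells that express a gene and a change in its RNA per cell cannot be told apart.

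**Figure D1:**
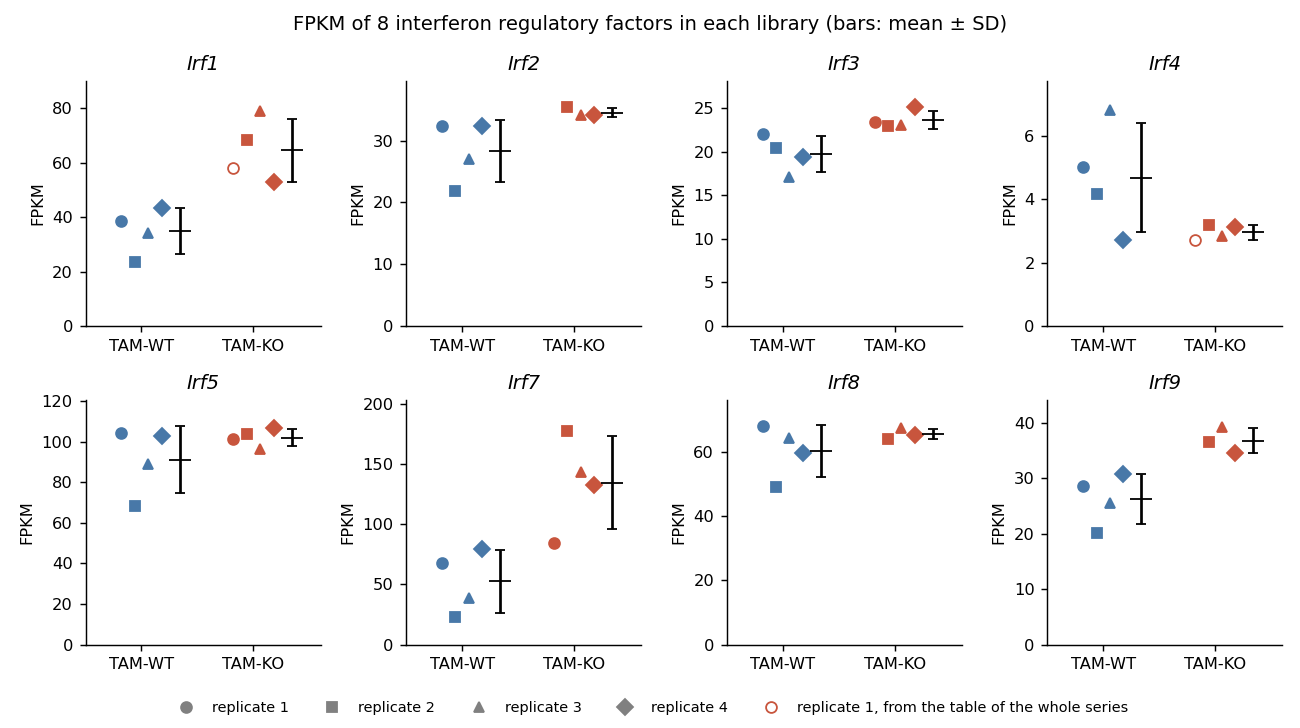
FPKM of each IRF gene in the individual libraries of TAM-WT (blue) and TAM-KO (red), with the marker shape giving the replicate and the black bar the mean ± SD. Irf1 in TAM-KO (52.9 to 79.0 FPKM) lies above TAM-WT (23.6 to 43.3 FPKM), Irf7 spreads widely in both groups, and Irf4 alone has a lower mean in TAM-KO; the open circles come from the table of the whole series, and Irf2, Irf8 and Irf9 have 3 TAM-KO values.

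Irf1 and Irf2 recognize the same sites with opposite outcomes, Irf1 being an activator induced by interferon gamma and required for much of the class I antigen presentation machinery, and Irf2 being known mainly as its constitutive antagonist. Irf1 (NCBI gene 16362, chromosome 11) stood at 38.7, 23.6, 34.2 and 43.3 FPKM in TAM-WT replicates 1 to 4. In TAM-KO it stood at 68.3, 79.0 and 52.9 FPKM in replicates 2 to 4, and at 58.1 FPKM in replicate 1 as the table of differential expression gives it. Every TAM-KO library lay above every TAM-WT library. The 4 TAM-WT libraries averaged 34.9 ± 8.43 FPKM and the 4 TAM-KO libraries 64.6 ± 11.6 FPKM (mean ± SD, as throughout). The rise amounted to a log2 fold change of 0.82 (SE 0.21, 95% interval 0.33 to 1.31, adjusted p = 0.0488 by edgeR on 7 libraries). The call was close to the threshold. It was lost on leaving out any library but TAM-WT replicate 2, the log2 fold change then lying between 0.69 and 0.95 with adjusted p of 0.0503 to 0.16. Without TAM-WT replicate 2 it was 0.66 with an adjusted p of 0.0174.

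Irf2 (chromosome 8) stood at 32.3, 21.8, 26.9 and 32.3 FPKM in TAM-WT and at 35.3, 34.1 and 34.1 FPKM in TAM-KO replicates 2 to 4. The 3 TAM-KO values were tight and lay just above the highest TAM-WT value. Irf2 had a log2 fold change of 0.17 (SE 0.14, adjusted p = 0.465 by edgeR), and the 95% interval of −0.16 to 0.50 admits both no change and a rise. Irf1 and Irf2 were therefore set side by side within each library, a ratio chosen after the values were seen and given without a test. The Irf1 to Irf2 ratio of FPKM was 1.2, 1.08, 1.27 and 1.34 in TAM-WT and 1.93, 2.32 and 1.55 in TAM-KO. Activator transcripts exceeded antagonist transcripts in all 7 libraries, and the ratios of the groups did not overlap.

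Irf3 and Irf7 are the factors phosphorylated by TBK1 and IKKε after nucleic acid sensing. Irf3 is present beforehand and starts interferon beta transcription, whereas Irf7 is itself interferon-inducible and amplifies the response. Irf7 (chromosome 7) stood at 67.6, 23.3, 39.0 and 79.7 FPKM in TAM-WT and at 84.3, 177, 143 and 133 FPKM in TAM-KO. The TAM-KO libraries lay above the TAM-WT libraries, but narrowly, as TAM-KO replicate 1 and TAM-WT replicate 4 were neighbours. On the scale of CPM, which are counts scaled to library size after TMM normalization, these 2 libraries changed places, at 207 and 218 CPM. The means were 52.4 ± 25.8 and 134 ± 38.5 FPKM over 4 libraries a group, a ratio of 2.57. Irf7 had a log2 fold change of 1.25 (SE 0.36, 95% interval 0.45 to 2.05, adjusted p = 0.0538 by edgeR on 8 libraries), the largest of the family and short of the threshold. Without TAM-WT replicate 2 it was 0.99 with an adjusted p of 0.0282.

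Irf3 (chromosome 7) moved over a much narrower range, at 22.1, 20.4, 17.2 and 19.4 FPKM in TAM-WT and 23.4, 23.0, 23.1 and 25.2 FPKM in TAM-KO. The groups did not overlap in FPKM, yet they overlapped in CPM. Irf3 had a log2 fold change of 0.17 (SE 0.08, adjusted p = 0.191 by edgeR). Within a library Irf7 exceeded Irf3 by 3.06, 1.14, 2.28 and 4.12 times in TAM-WT and by 3.60, 7.73, 6.21 and 5.27 times in TAM-KO, and these ranges overlapped through TAM-WT replicate 4 and TAM-KO replicate 1.

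**Figure D2:**
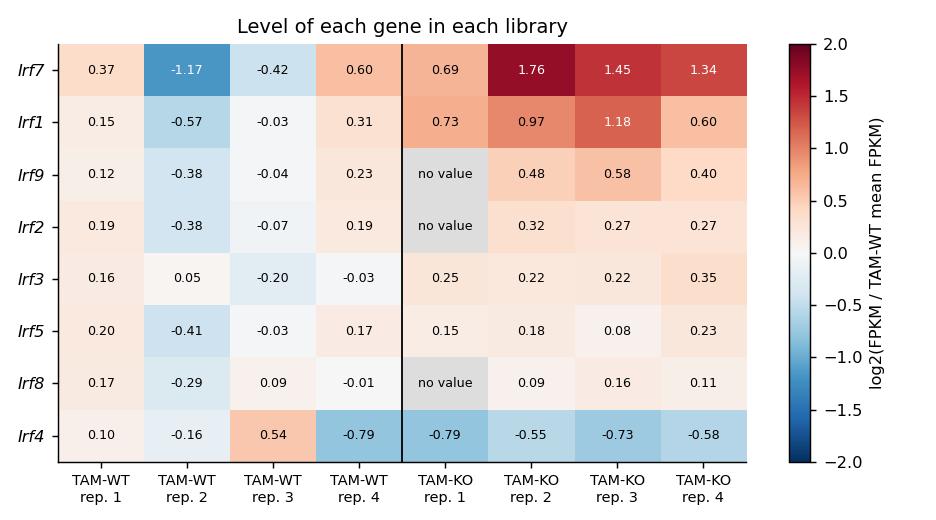
Level of each IRF gene in each library as log2 of its FPKM over the TAM-WT mean, with red above and blue below that mean and grey where TAM-KO replicate 1 has no value. TAM-WT replicate 2 is below the mean for 7 of the 8 genes and TAM-KO replicates 2 to 4 are above it for every gene but Irf4.

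Irf9 is the DNA-binding subunit of ISGF3, the complex that carries type I interferon signals to ISREs. Irf9 (chromosome 14) stood at 28.6, 20.2, 25.6 and 30.7 FPKM in TAM-WT and 36.5, 39.2 and 34.6 FPKM in TAM-KO replicates 2 to 4. The groups did not overlap in FPKM or in CPM. Irf9 had a log2 fold change of 0.38 (SE 0.15, unadjusted p = 0.032 and adjusted p = 0.126 by edgeR on 7 libraries), so it did not pass. Stat2, which encodes a subunit of the same complex, averaged 16.8 ± 5.41 FPKM in TAM-WT against 32.7 ± 4.79 FPKM in TAM-KO, and its rise was 0.85 on the log2 scale (SE 0.22, adjusted p = 0.0442 by edgeR).

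Irf4 and Irf5 are commonly placed at opposite ends of macrophage activation. Irf4 acts in the alternative (M2) program and also marks lymphocytes and some dendritic cells, and Irf5 acts downstream of MyD88 in transcription of inflammatory cytokines. Irf4 (chromosome 13) was the scarcest member, at 5, 4.17, 6.81 and 2.71 FPKM in TAM-WT. In TAM-KO it stood at 3.19, 2.82 and 3.13 FPKM in replicates 2 to 4 and at 2.70 FPKM in replicate 1 of the table of differential expression. TAM-WT replicate 4 lay among the TAM-KO libraries, so the groups overlapped. Irf4 had a log2 fold change of −0.73 (SE 0.28, unadjusted p = 0.0325 and adjusted p = 0.127 by edgeR on 7 libraries), the only value below 0 in the family. It stayed below 0 in all 18 alternative fits, from −0.91 to −0.44, and passed in none of them.

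Irf5 (chromosome 6) was among the most abundant members, at 104, 68.4, 89.2 and 103 FPKM in TAM-WT and 101, 104, 96.5 and 107 FPKM in TAM-KO. The TAM-KO values fell inside the TAM-WT range except in replicate 4. The log2 fold change was 0.05 (SE 0.13, adjusted p = 0.816 by edgeR), with a 95% interval of −0.24 to 0.345. Its counts were not whole in 7 libraries, which shows that the authors' counting split reads between Irf5 and other sequences. The Irf5 to Irf4 ratio was 20.9, 16.4, 13.1 and 37.9 in TAM-WT and 37.4, 32.5, 34.2 and 34.1 in TAM-KO. TAM-WT replicate 4 had the highest ratio of all, and the groups overlapped.

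Irf8, with its partner PU.1, directs monocyte and dendritic cell development and persists in mature macrophages. Irf8 (chromosome 8) stood at 67.9, 49.1, 64.1 and 59.7 FPKM in TAM-WT and 64.1, 67.2 and 65.1 FPKM in TAM-KO replicates 2 to 4. All TAM-KO values lay inside the TAM-WT range. The log2 fold change was 0.01 (SE 0.12, adjusted p = 0.96 by edgeR), with a 95% interval of −0.272 to 0.296. Spi1, which encodes PU.1, stood at 225 ± 23.5 FPKM in TAM-WT and 225 ± 15.3 FPKM in TAM-KO over 4 libraries each (log2 fold change −0.11, SE 0.10, adjusted p = 0.516 by edgeR).

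**Figure D3:**
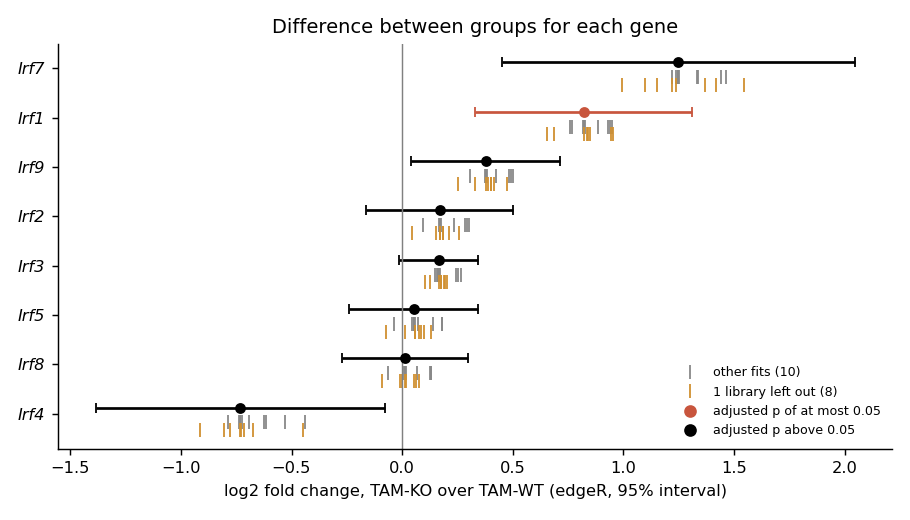
Log2 fold change of each IRF gene (TAM-KO over TAM-WT) with its 95% interval from edgeR, Irf1 in red as the gene past the threshold. Grey ticks give the 10 other fits and amber ticks the 8 fits that each leave out a library; the ticks of Irf7, Irf1, Irf9, Irf2 and Irf3 lie above 0, those of Irf4 below 0, and those of Irf5 and Irf8 on both sides.

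The order of the members by FPKM, which is scaled for length, differed between the groups in its upper part. In TAM-WT, Irf5 led at 91.2 ± 16.6 FPKM, above Irf8 in every library and with no overlap. Irf8, Irf7, Irf1, Irf2, Irf9 and Irf3 followed, each overlapping the next in range, and Irf4 came last at 4.67 ± 1.71 FPKM. In TAM-KO, Irf7 led at 134 ± 38.5 FPKM and exceeded Irf5 (102 ± 4.28 FPKM) in 3 of 4 libraries, the ranges overlapping. Irf8 and Irf1 came next and overlapped, Irf9 and Irf2 followed and overlapped, and Irf3 and Irf4 closed the order with no overlap. The 8 genes summed to 231 to 370 FPKM in TAM-WT and 454 to 511 FPKM in the 3 TAM-KO libraries with all values. Irf7 made up 10.1% to 21.5% of that sum in TAM-WT and 29.2% to 34.7% in TAM-KO, whereas Irf5 made up 27.7% to 29.6% and 19.9% to 23.5%.

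Within TAM-WT the members did not vary alike. Irf7 spanned 3.43 times from its lowest to its highest library, Irf4 2.51 times and Irf1 1.84 times, and the other 5 spanned 1.29 to 1.53 times. TAM-WT replicate 2 was the lowest of its group for 6 of the 8 genes, the exceptions being Irf3 and Irf4. That library also held the highest melanoma marker sum in its group (4382 FPKM, the others 1958 to 2640) and the lowest macrophage marker sum (6994 FPKM, the others 7979 to 8732). The part of either in its IRF values was not tested. The coefficient of variation was higher in TAM-WT than in TAM-KO for all 8 genes, for example 49.3% against 28.6% for Irf7 and 17.8% against 2.09% for Irf2, though for 3 of them TAM-KO had only 3 values.

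**Figure D4:**
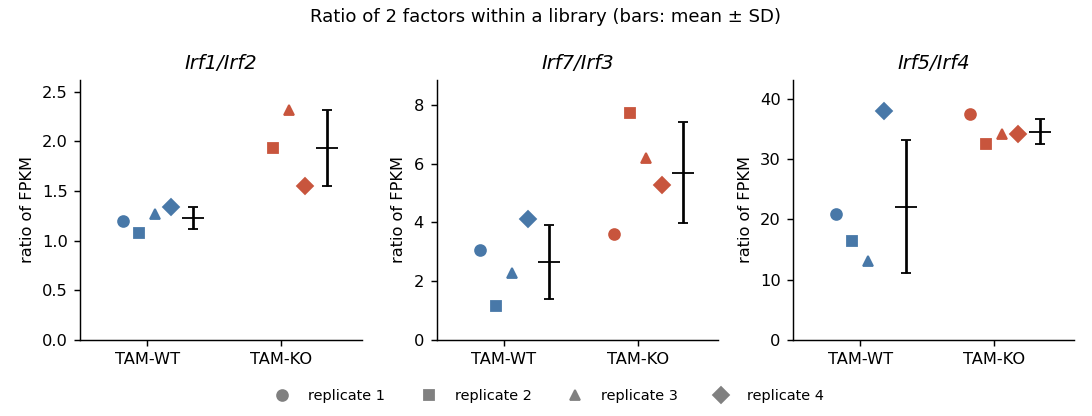
Ratio of FPKM between 2 IRF genes in the same library, with marker shapes for the replicates and bars for the mean ± SD. The Irf1 to Irf2 ratio separates the groups (1.08 to 1.34 against 1.55 to 2.32), while the Irf7 to Irf3 and Irf5 to Irf4 ratios overlap; the Irf5 to Irf4 ratio of TAM-KO replicate 1 takes Irf4 from the table of the whole series.

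In FPKM, 5 of the 8 members (Irf1, Irf2, Irf3, Irf7 and Irf9) were higher in every TAM-KO library than in every TAM-WT library, over the libraries with a value in their own table, against 13.8% of all genes tested. Irf1, Irf2 and Irf9 were compared on 3 TAM-KO libraries, where full separation is easier to reach. That holds for 5 of the 8 members and 3016 of the 12412 genes, so the shares are not like for like. In CPM after TMM normalization this held for 2 of the 8 (Irf1 and Irf9), against 9.1% of all genes, so the count depends on the scale. None of the 8 was lower in every TAM-KO library. The members most alike across the 7 libraries were Irf2 and Irf5, whose log2 CPM, each centred on its mean, differed by a root mean square of 0.072. Irf4 and Irf7 were the least alike at 1.33. By the same measure the 3 genes outside the family nearest to Irf1 were Ifi203 (0.116), F830016B08Rik (0.126) and Nmi (0.136), over 7 libraries. Since these 3 genes were picked for a profile like that of Irf1 over the same libraries, their own group difference is largely set by that choice and is not given as a result.

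Around the factors, 87 distinct genes of 9 lists (ligands, receptors, sensors, partners and targets) were tested, and 19 were called, 14 higher and 5 lower. Of all genes tested, 9.81% were called, and 5.24% were called lower. The count rested on few libraries: it was 0 by edgeR without TAM-KO replicate 2, TAM-KO replicate 3 or TAM-WT replicate 3, with 40, 38 and 41 genes at an unadjusted p under 0.05, and 33 without TAM-WT replicate 2. DESeq2 called 34 and limma voom 44, where these methods called 2253 and 3625 of all 12412 genes. Calls by DESeq2 or voom in any list are to be read beside those larger totals. Counts at an unadjusted p under 0.05, here and elsewhere, are given without their share over all genes and show no excess by themselves.

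Upstream of the IRFs, 2 of 8 interferon genes had enough reads to be tested and neither passed by edgeR. Ifng, the ligand of the pathway that induces Irf1, stood at 2.49, 0, 0.12 and 0 FPKM in TAM-WT. In TAM-KO it stood at 7.77, 6.11 and 2.15 FPKM in replicates 2 to 4, and at 3.59 FPKM in replicate 1 of the table of differential expression. TAM-WT replicate 1 lay inside the TAM-KO range, and the log2 fold change of 2.94 (SE 1.04) had an adjusted p of 0.102 by edgeR. The other ligand tested, Ifnb1 (interferon beta), lay on the opposite side, at 3.64 ± 1.74 FPKM in TAM-WT and 1.36 ± 0.73 FPKM in TAM-KO (log2 fold change −1.38, SE 0.54, adjusted p = 0.128 by edgeR). Both had an unadjusted p under 0.05, DESeq2 called neither, and limma voom called Ifng higher and Ifnb1 lower. Ifng is a product of T and NK cells. Of 9 receptor, JAK and STAT genes 3 rose, among them Stat2 and the kinase Tyk2 (14.5 ± 0.99 to 18.9 ± 1.18 FPKM, 4 libraries each; log2 fold change 0.26, adjusted p = 0.0426 by edgeR), and 6 did not pass.

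Of 22 sensors, adaptors and kinases that activate IRFs, 3 rose and 19 did not pass by edgeR. The list had 15 log2 fold changes above 0, 7 below 0 and a median of 0.13. DESeq2 called 4 higher and 2 lower (Traf6 and Tlr7). Limma voom called 4 higher and 5 lower, Tbk1 and Tlr7 among the lower. The endosomal double-stranded RNA sensor Tlr3 rose from 4.84 ± 0.87 to 9.22 ± 1.72 FPKM (log2 fold change 0.90, adjusted p = 0.0168 by edgeR on 7 libraries). The cyclic dinucleotide receptor Sting1 rose from 27.0 ± 6.62 to 45.0 ± 6.34 FPKM (log2 fold change 0.64, adjusted p = 0.0302 by edgeR). Ddx58, which encodes the RNA sensor RIG-I, rose from 11.7 ± 3.41 to 20.6 ± 2.34 FPKM (log2 fold change 0.71, adjusted p = 0.0452 by edgeR). Among 10 partner genes, 2 rose. Batf2, which pairs with IRF1 in macrophages, rose from 6.14 ± 3.38 to 17.9 ± 3.09 FPKM (log2 fold change 1.44, adjusted p = 0.0269 by edgeR), and Trim21, a ubiquitin ligase for several IRFs, had a log2 fold change of 0.54 (adjusted p = 0.0403 by edgeR). SDs here are over 4 libraries a group, and the TAM-KO mean of Tlr3 includes the replicate 1 value of the differential expression table, which its test does not use.

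Downstream, 4 of 12 genes known as IRF1 targets rose, 8 did not pass, and 11 had a log2 fold change above 0 (median 0.82). Those that rose were Psmb9, the immunoproteasome subunit (51.0 ± 17.6 to 107 ± 25.9 FPKM), Tap2, the peptide transporter (25.4 ± 5.83 to 44.3 ± 6.56 FPKM), Nlrc5, the class I transactivator (5.90 ± 2.45 to 16.7 ± 4.10 FPKM), and the chemokine Cxcl10 (110 ± 19.8 to 214 ± 59.3 FPKM). The TAM-KO means of Psmb9 and Cxcl10 include the replicate 1 value of the differential expression table, which their tests do not use. In the order given, the adjusted p by edgeR was 0.0285, 0.0302, 0.0265 and 0.0324. Cd274, which encodes PD-L1 and is the target of highest mean CPM, had a log2 fold change of 0.14 (SE 0.25, adjusted p = 0.741 by edgeR).

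Of 16 ISGF3 targets, all 16 had a log2 fold change above 0 (median 0.77), but only Ifi44 and Ifi35 rose by edgeR, while 11 had an unadjusted p under 0.05 and DESeq2 called 10. Ifi35 stood at 28.1, 21.8, 19.9 and 29.1 FPKM in TAM-WT and 40.2, 41.1, 42.4 and 40.9 FPKM in TAM-KO, with no overlap (log2 fold change 0.63, adjusted p = 0.0184 by edgeR). Ifi44 stood at 1.35, 0.16, 0.21 and 0.82 FPKM in TAM-WT and 1.87, 3.47, 3.94 and 2.48 FPKM in TAM-KO (log2 fold change 2.10, adjusted p = 0.0384 by edgeR). Rsad2, the target of highest mean CPM, had a log2 fold change of 0.52 (adjusted p = 0.391 by edgeR).

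Of 7 alternative activation genes placed under IRF4, 3 fell and 4 did not pass, with 5 log2 fold changes below 0, 2 above 0 and a median of −1.01. Mrc1, encoding the mannose receptor CD206, fell, averaging 452 ± 14.7 FPKM in TAM-WT against 233 ± 58.0 FPKM in TAM-KO (log2 fold change −1.13, adjusted p = 0.0219 by edgeR on 7 libraries). The lectin gene Mgl2 (log2 fold change −1.51, adjusted p = 0.0253 by edgeR) and Retnla (log2 fold change −1.40, adjusted p = 0.0452 by edgeR) also fell. Retnla had 6 to 28 counts per library, and the counts of Mgl2 were not whole. The 2 genes above 0, named after their values were seen, were Chil3, at 36.8 ± 15.3 FPKM in TAM-WT and 73.6 ± 12.5 FPKM in TAM-KO with no overlap (log2 fold change 0.82, adjusted p = 0.144 by edgeR), and Pdcd1lg2 (log2 fold change 0.88, adjusted p = 0.198 by edgeR). Of 4 IRF5 targets tested all 4 had log2 fold changes below 0 (median −1.32), and the interleukin 12 p40 gene Il12b fell, from 1.04 ± 0.37 FPKM in 4 libraries to 0.33 ± 0.11 FPKM in 3 (adjusted p = 0.0329 by edgeR). Tnf, the IRF5 target of highest mean CPM, had a log2 fold change of −1.34 (SE 0.46, adjusted p = 0.0865 by edgeR). Of 6 IRF8 myeloid targets, Il12b and the monocyte regulator Klf4 (38.2 ± 8.58 to 22.5 ± 3.75 FPKM, 4 libraries each; adjusted p = 0.0433 by edgeR) fell, and 4 did not pass. The TAM-KO means of Ifnb1, Chil3, Mrc1 and Klf4 likewise include a replicate 1 value from the differential expression table that was not tested.

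**Figure D5:**
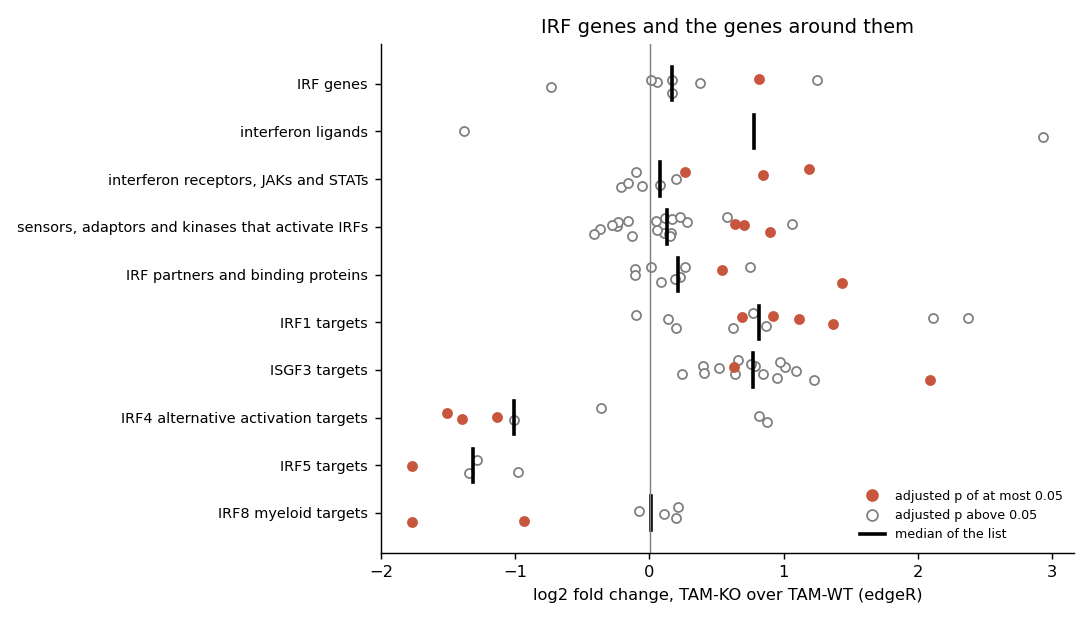
Log2 fold change (TAM-KO over TAM-WT, edgeR) of each tested gene in the IRF family and in the 9 lists around it, filled where the adjusted p was at most 0.05, with a black bar at the median of a list and the grey line at the median of all genes. The IRF1 and ISGF3 target lists have medians of 0.82 and 0.77, the IRF4 and IRF5 target lists −1.01 and −1.32, and the family itself 0.17.

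Markers of some other cell types also differed between the groups, and those of others did not. Of 5 monocyte markers, 3 rose, Ly6c2 and Plac8 among them, the list summing to 76.8 to 177 FPKM in TAM-WT and 240 to 368 FPKM in TAM-KO. The other 2, Ccr2 and Vcan, had log2 fold changes below 0, at −0.05 and −0.38 (adjusted p = 0.917 and 0.426 by edgeR). None of 7 T cell markers passed by edgeR, though 6 had an unadjusted p under 0.05, DESeq2 called 2 and limma voom called 6. The remaining marker, Cd4, had a log2 fold change of −0.29 (adjusted p = 0.507 by edgeR). The T cell sum was 2.12 to 16.9 FPKM in TAM-WT and 18.5 to 49.6 FPKM in TAM-KO. The NK cell sum was 0.54 to 6.19 and 5.76 to 16.6 FPKM, with Eomes called. Of the 6 NK genes 3 were tested, all with log2 fold changes above 0, and Klrk1 and Prf1 averaged 5.80 and 4.56 FPKM in TAM-KO. Ncr1, Klrb1c and Gzma were not tested, at means of 0.025, 0.155 and 0.095 FPKM in TAM-WT and 0.085, 0.087 and 0.52 FPKM in TAM-KO. The neutrophil list summed to 21.4 to 32.3 and 48.8 to 55.6 FPKM without TAM-KO replicate 1 (1 of 4 called, S100a8, and 3 by DESeq2). TAM-KO replicate 1 stood apart for these genes, with S100a8 at 73.5 FPKM against 9.13 to 15.8 FPKM in the other TAM-KO libraries and S100a9 at 80.03 FPKM against 5.09 to 13.3 FPKM. In that library Irf7 and Irf4 were the lowest of TAM-KO, whereas Irf1, Irf3 and Irf5 were lowest in replicates 4, 2 and 3. All 7 melanoma markers had log2 fold changes above 0 (0.48 to 0.82), with 1 called by edgeR (Sox10), 6 at an unadjusted p under 0.05, 5 called by DESeq2 and 7 by limma voom. Conventional dendritic cell markers summed to 7.26 to 17.6 and 9.27 to 11.5 FPKM (1 of 6 called by edgeR, Xcr1, which was higher). Cd209a lay on the opposite side (log2 fold change −1.01, adjusted p = 0.065 by edgeR). DESeq2 and limma voom each called Xcr1 higher and Cd209a lower. The plasmacytoid dendritic cell list summed to 0.30 to 1.28 and 0.65 to 1.57 FPKM (0 of 2 called by edgeR, DESeq2 or voom, 0 with an unadjusted p under 0.05), and the B cell list to 4.44 to 7.29 and 5.75 to 11.5 FPKM (0 of 2 called by edgeR or DESeq2, 1 by voom, 1 with an unadjusted p under 0.05). The 2 B cell genes tested lay on opposite sides, with log2 fold changes of 0.88 for Cd79b and −0.52 for Cd79a (adjusted p = 0.11 and 0.498 by edgeR). Macrophage markers summed to 6994 to 8732 and 7858 to 8499 FPKM, and by edgeR 0 of 8 were called (3 with an unadjusted p under 0.05, 3 called by DESeq2 and 4 by limma voom). TAM-KO sums cover 3 libraries, and no marker was at 0 in every library. By library, the T cell sum was 16.9, 2.12, 2.88 and 2.82 FPKM in TAM-WT and 49.6, 40.3 and 18.5 FPKM in TAM-KO replicates 2 to 4. Irf7 followed the same order as that sum in these 3 TAM-KO libraries but not in TAM-WT, where it was highest in replicate 4. The NK cell, monocyte and melanoma sums had the same order in these TAM-KO libraries, and an order of 3 libraries does not tell these lists apart. In TAM-WT the monocyte sum was 176.8, 76.84, 142.2 and 176.9 FPKM in replicates 1 to 4. That is the order of Irf7 too, but replicates 1 and 4 were all but equal in the monocyte sum. The part of these cells in the IRF values was not tested.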

How the data were processed

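RNA from CD45+F4/80+ cells (sort purity above 95%, per the study's methods) was sequenced in 4 TAM-WT and 4 TAM-KO libraries. The submitters' processing notes name HISAT2 2.0.4, Bowtie2 2.2.5, RSEM 1.2.12 and GRCm38.p6. Per gene, the authors deposited RSEM expected counts, which are not normalized, and FPKM. Whether counting used strand is not given in the sources used here. The whole-series table of 3996 genes also holds the authors' fold changes, p and q values, which were not used.

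Tables were joined on gene symbol. Expected counts were rounded, filtered with edgeR's filterByExpr, TMM-normalized and tested with edgeR 4.0.16 (quasi-likelihood F test, genotype as the sole term, Benjamini-Hochberg adjustment, threshold 0.05). The script was tested on simulated data. Of 12412 genes, 9396 were fitted on 8 libraries. The other 3016, without a TAM-KO replicate 1 value, came from a fit of all genes on 7 libraries. The 1188 values that the whole-series table could supply entered a test only in an alternative. They are included in the FPKM values, means, SDs and ratios printed for genes that have them. Intervals are 95%. DESeq2 1.42.0, limma 3.58.1 (voom, and log2(FPKM + 1) or log2(FPKM + 0.1)), other scalings and filters, a replicate block and omission of each library were alternatives.

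Gene symbols, promoters and gene spans came from RefSeq and GENCODE on GRCm38. The members and lists were chosen with earlier results of these data known, so no list was tested as a set. Named genes were the 8 members, Colec11, Ifng, Stat2, the called genes of each pathway list (at most 5 of smallest adjusted p) with the gene of highest mean CPM, the 2 marker genes of highest mean CPM per list, and the 3 genes nearest to a called member. Some genes that meet this rule are not reported here.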

Additional observations from a re-analysis of the deposited data

How the results depend on the processing

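Irf1, Irf2, Irf3, Irf4, Irf7 and Irf9 kept their direction in all 18 alternative fits. Irf1 was called in 9 of them and Irf7 in 7, with log2 fold changes of 0.66 to 0.95 and 0.99 to 1.54, Irf9 in 1 (scaling to total reads, adjusted p = 0.0493), and the other 5 in none. Irf5 and Irf8 turned to −0.037 and −0.066 under limma voom. On leaving out a library Irf5 ran from −0.074 (TAM-WT replicate 2 left out) to 0.13, and Irf8 ran from −0.092 (the same library) to 0.076, with −0.001 and −0.009 when replicate 3 or 4 of TAM-KO was omitted. The members' median stayed between 0.11 and 0.28.

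Against 1 IRF gene called by edgeR, 2 were called by DESeq2, limma voom, limma on log2(FPKM + 1), limma on log2(FPKM + 0.1) and without the low-count filter, 3 with scaling to total reads, and 0 with DESeq2 size factors, with an adjusted p of at most 0.01 or with a fold change of at least 2. Leaving out a library gave 0 to 2, the 2 being Irf1 and Irf7 without TAM-WT replicate 2 and the 0 arising in the other 7 cases, where 2 to 4 members had an unadjusted p under 0.05. Members higher without overlap numbered 5 in FPKM and 2 in CPM, an alternative chosen after seeing the data. Over all genes 1218 were called, and 2253 by DESeq2, 3625 by limma voom, 36 at an adjusted p of at most 0.01, 314 with a fold change of at least 2, and 77 to 2755 on leaving out a library. Of 19 pathway genes called, the count was 34 by DESeq2, 44 by limma voom, 33 by limma on either FPKM scale, 32 with total reads, 0 at an adjusted p of at most 0.01, 9 with a fold change of at least 2, and 0 to 33 on leaving out a library. The cause was not tested, except that the stricter thresholds keep fewer genes by construction and that leaving out TAM-KO replicate 1 cannot touch the fit of Irf1, whose p stayed at 0.00469, but changes the adjustment.

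Deviations from the group mean correlated by −0.325, 0.02, −0.234 and 0.261 in same-numbered libraries and by −0.303 to 0.376 in differently numbered ones. The numbers were therefore not treated as pairs. This check cannot exclude a shared litter or batch, which the labels do not give. A fit with the replicate block called 0 of the 8 members, 17 pathway genes and 1080 genes. Scaling to total reads or FPKM shifted the median of all genes by 0.09 to 0.11 and the share of calls that were higher from 46.6% to 64.4% (total reads), 69.2% and 68.4% (FPKM with 1 or 0.1 added). In GENCODE, Irf1, Irf3, Irf5 and Irf7 share 907, 1065, 1045 and 45 bases with a gene on the opposite strand, and Irf2 shares 1723, 433 and 877 bases with 3 such genes. Irf9 shares 123 bases with Rnf31 on its own strand, and Irf8 lies within Gm20388 on its own strand over 20337 bases, so that reads there may be shared. Irf4 had the fewest counts of the 8 genes summed over libraries.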
